A study of Mus musculus with 2 samples.

Results

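Mitochondrial ribosomal protein genes were examined in the RNA of cultured mouse aortic perivascular cells (PCs), one library from wild-type (WT) cells and one from cells with a knockout of Kai1 (Kai1-/-), the gene also named Cd82. The members were all symbols in the tables used here of the form Mrpl or Mrps followed by a number and, in some, the letter a, b or c. They came to 74 of the 20211 symbols measured, 46 named for the large subunit and 28 for the small subunit. Both libraries came from C57BL/6 cells grown in DMEM with fetal bovine serum, and the methods describe adult mice of either sex. The knockout allele, the number of animals and the passage of the cultures are not given in the sources used here. With 1 library per genotype there was no replicate check and no p-value, so that differences between animals, cultures or library preparations cannot be told apart from those of genotype.

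The mitochondrial ribosome translates the few messages of the mitochondrial genome, all of which encode subunits of the respiratory chain and the ATP synthase. Its rRNAs are made in the mitochondrion, while all of its proteins are encoded in the nucleus, made in the cytosol and imported. The large subunit forms the peptide bond and holds the exit tunnel, and the small subunit holds the mRNA and the decoding site. Many of the proteins have bacterial homologues, and others are found only in mitochondria. Apart from the stalk protein Mrpl12, the proteins are present once per particle, so that the mRNA levels of the members can be set beside a nearly equal protein stoichiometry.

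The values are in RPKM, reads per kilobase of transcript, scaled to a fixed number of mapped reads, and ratios are log2 ratios of Kai1-/- to WT after 0.1 was added to each RPKM, which slightly understates changes of low genes. The targeted gene Cd82 was at 12.8 RPKM in the WT and 2.62 RPKM in the Kai1-/- library. The perivascular markers Acta2 (3823 and 2580), Tagln (633 and 307), Pdgfrb (44.7 and 31.6) and Cspg4 (15.4 and 8.27) were present in WT and Kai1-/- PCs, whereas Rgs5 was low in both (0.0630 and 0.233), and Mcam (4.90 and 0.264) and Des (1.23 in WT PCs, a log2 ratio of -1.93) were low in the Kai1-/- library. The 7 perivascular markers summed to 4522 RPKM in the WT and 2927 RPKM in the Kai1-/- library. The 6 endothelial markers summed to 0.975 in WT PCs and all were listed at 0 in Kai1-/- PCs. The 5 macrophage markers summed to 13.0 and 3.13, most of it Csf1r (11.7 and 2.66), followed by Cd68 (1.17 and 0.464). Ptprc was at 0.0407 and 0.00697, and Emr1 was listed at 0 in both libraries. The Y-linked genes Ddx3y, Eif2s3y, Kdm5d and Uty were at 6.56, 3.17, 0.941 and 0.479 RPKM in the WT and all listed at 0 in the Kai1-/- library. The labels give no sex, and a difference in sex between the donors cannot be told apart from genotype. The spacing of the low RPKM values, which is set by single reads, corresponded to about 29400000 reads for WT and 26800000 for Kai1-/-.

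All 74 genes reached a mean of 1 RPKM over both libraries, the minimum used for counting (such genes are called tested below), and the lowest values were those of Mrpl1 at 2.23 in WT and 2.44 in Kai1-/- PCs. Of the 74 genes, 69 had a higher RPKM in the Kai1-/- library and 5 a lower one. Their median log2 ratio was 0.51, and the ratios of 43 genes lay between 0.25 and 0.75. Over all 10068 tested genes the median was 0.08, and 55.1% had a ratio above 0. Among the 1824 genes between the lower and upper quartile of the members' mean levels, an RPKM of 25.4 to 118, the median was 0.17. More than 1.5-fold higher in Kai1-/- PCs were 30 of the 74 genes, against 20.7% of all tested genes, and 1 was more than 1.5-fold lower, against 16.2%. More than 2-fold higher were 8 genes, against 7.98% of all tested genes, and 1 was more than 2-fold lower, against 7.81%. The members past 2-fold higher made up 10.8% of the 74 genes, close to the share of all genes, and those past 2-fold lower 1.35%, under that share.

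The size of this shift, and the direction of many single members, depended on how the libraries were scaled. The sum of all RPKM values was 884463 in WT and 1238190 in Kai1-/- PCs, of which the genes of the cytosolic ribosome held 37.3% and 48.6%. With equal RPKM sums, 40 of the 74 genes were higher in Kai1-/- PCs and their median log2 ratio was 0.03, while the median of all tested genes was -0.40. Scaled to Gapdh, 38 were higher, with a median of 0.015. A scaling moves all ratios by nearly the same amount, so that the distance of 0.43 between the members' median and that of all tested genes does not depend on it. The number of members above 0 does, and so does the height of their median above 0.

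**Figure D1:**
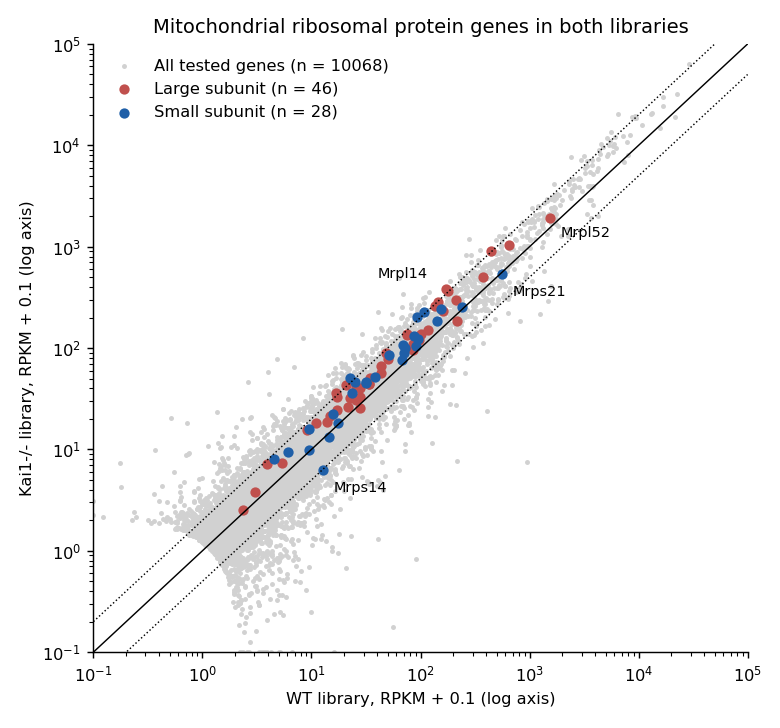
RPKM + 0.1 of each gene in the WT library (x axis) and the Kai1-/- library (y axis), both on log axes, with all tested genes in grey, the solid line at equal values and dotted lines at 2-fold. The large subunit (red) and small subunit genes (blue) run along a line slightly above equality, from Mrpl1 to Mrpl52, and Mrps14 is the only one of the 74 below the lower 2-fold line.

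**Figure D2:**
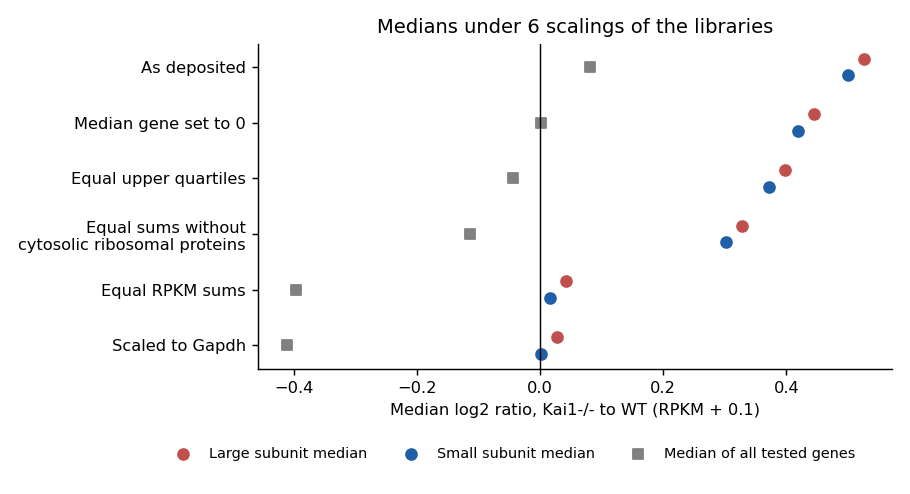
Median log2 ratio of Kai1-/- to WT for the large subunit (red), the small subunit (blue) and all tested genes (grey squares) under 6 scalings of the libraries. The subunit medians move from about 0.5 to near 0 as the grey squares move from 0.08 to -0.41, and all 3 medians shift by the same amount in each scaling.

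The large subunit had a median RPKM of 38.7 in WT and 53.4 in Kai1-/- PCs, and the small subunit 44.7 and 64.0. The median log2 ratio was 0.53 for the 46 large subunit genes, with quartiles of 0.37 and 0.81, and 0.50 for the 28 small subunit genes, with quartiles of 0.19 and 0.68. The medians differed by 0.03, with no test, and the SD of single genes was 0.32 in the large and 0.44 in the small subunit. Higher in Kai1-/- PCs were 44 of 46 large and 25 of 28 small subunit genes, and 44 and 22 of them lay above the median of all tested genes. More than 1.5-fold higher were 18 large (39.1%) and 12 small subunit genes (42.9%), beside 20.7% of all tested genes. The summed RPKM of the large subunit went from 5578 to 8274 and that of the small subunit from 2158 to 2840.

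Some symbols do not match the place of the protein in the particle. Mrps18a and Mrps30 are named for the small subunit but lie in the large subunit of the mammalian structure, and Mrps36 is now regarded as a part of the 2-oxoglutarate dehydrogenase complex. With Mrps18a and Mrps30 counted as large and Mrps36 left out, the medians were 0.51 for 48 large and 0.54 for 25 small subunit genes, so that their order was reversed. Mrps30 was at 9.34 RPKM in the WT and 9.70 RPKM in the Kai1-/- library. Mrps36 was at 38.3 and 51.9. RPKM

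**Figure D3:**
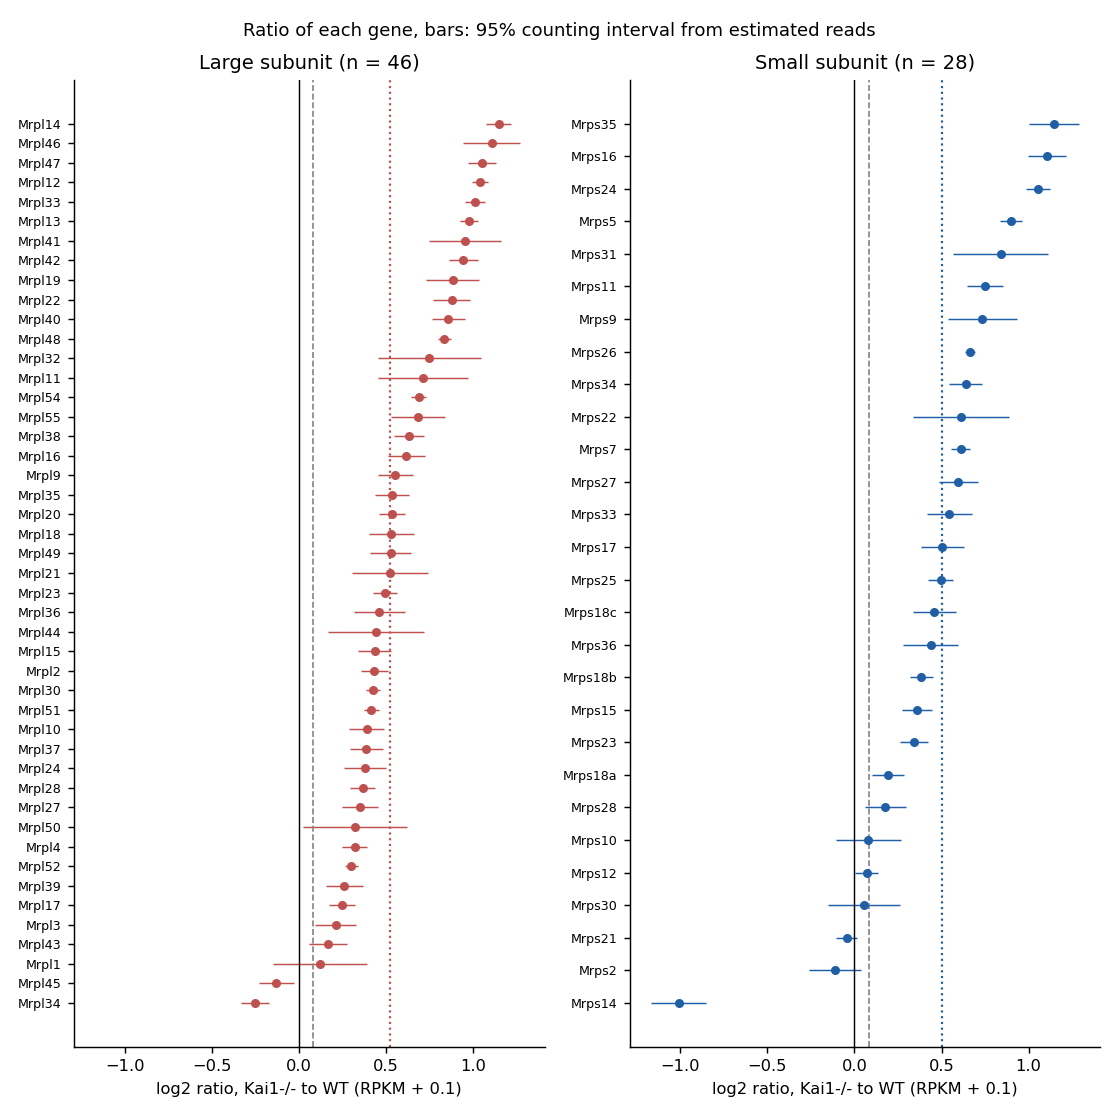
Log2 ratio of Kai1-/- to WT for each large subunit gene (left) and small subunit gene (right), with bars for the approximate 95% counting interval from estimated reads, a solid line at 0, a dashed line at the median of all tested genes and a dotted line at the median of the subunit. The points of both subunits form a continuous series up to 1.15, and Mrps14 stands alone at -1.01.

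The genes more than 2-fold higher in Kai1-/- PCs were 5 of the large and 3 of the small subunit. In the large subunit these were Mrpl14, Mrpl46, Mrpl47, Mrpl12 and Mrpl33. Mrpl14 (mm9 chr17:45823271-45835444), a homologue of bacterial L14 that lies at the face toward the small subunit, was at 172 RPKM in the WT and 381 RPKM in the Kai1-/- library, with a log2 ratio of 1.15. Mrpl46 (mm9 chr7:85920122-85928417), a protein of the central protuberance found only in mitochondria, was at 16.7 and 36.1 RPKM, a log2 ratio of 1.11. Both were higher in the Kai1-/- library, at levels more than 10-fold apart in each library. Mrpl47 (mm9 chr3:32624319-32636069), a homologue of bacterial L29 beside the exit tunnel, was at 20.6 and 42.8 RPKM (1.05). Mrpl12 forms the flexible stalk that contacts translation factors, and it has also been described to bind the mitochondrial RNA polymerase. It was at 178 RPKM in the WT and 365 RPKM in the Kai1-/- library, with a log2 ratio of 1.04. Mrpl33 (mm9 chr5:31899308-32004345), a small rRNA-binding protein, was at 445 and 898 RPKM (1.01).

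In the small subunit the genes past 2-fold were Mrps35, Mrps16 and Mrps24. Mrps35 (mm9 chr6:146991286-147019425), a protein of the small subunit head found only in mitochondria, was at 22.6 RPKM in the WT and 50.2 RPKM in the Kai1-/- library, with a log2 ratio of 1.15. Mrps16 (mm9 chr14:21210453-21212777), whose human counterpart is mutated in a mitochondrial translation disease, was at 93.7 and 202 RPKM (1.10). Mrps24, the homologue of bacterial S3 at the mRNA entry, was at 109 and 226 RPKM (1.05). Counting error alone gave these 8 ratios approximate 95% intervals of ± 0.05 for Mrpl12 to ± 0.16 for Mrpl46. They lay on 7 chromosomes, with Mrpl12 (120345927 to 120350379) and Mrps24 (5603986 to 5615683) far apart on chromosome 11 of mm9. Of the 8, 4 stayed past 2-fold with the median log2 ratio of all tested genes set to 0, and 2 with equal upper quartiles. With equal RPKM sums none of the 8 was past 2-fold, and the highest ratio was 0.66, that of Mrpl14. None was past 2-fold either with equal RPKM sums without cytosolic ribosomal protein genes, or scaled to Gapdh.

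Mrps14, on chromosome 1 from 162125346 to 162132301, went the other way. It encodes the homologue of bacterial S14 in the head of the small subunit. It was at 12.5 RPKM in the WT and 6.18 RPKM in the Kai1-/- library, with a log2 ratio of -1.01 ± 0.16 from counting error, on an estimated 1035 and 462 reads. Its ratio was more than 0.75 below the next lowest member, and 7.68% of all tested genes had a lower one. Its counting interval, from -1.17 to -0.85, spanned the 2-fold line. The 5 other scalings shift all ratios downward, and with equal RPKM sums it was at -1.49. None of the annotated genes overlapped it, and no copy of its transcript was found elsewhere in the genome by the criteria given below.

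The other members with a ratio below 0 lay near 0. Mrpl34, a small rRNA-binding protein, was at 218 RPKM in the WT and 183 RPKM in the Kai1-/- library (-0.25), and Mrpl45, which anchors the ribosome to the inner membrane at the exit tunnel, 28.0 and 25.6 (-0.13). Mrps2, a homologue of bacterial S2, was at 14.4 and 13.3 RPKM (-0.11), and Mrps21, the homologue of bacterial S21, 556 and 539 (-0.04). Just above 0 lay Mrps30 (0.05), Mrps12, the decoding site homologue of bacterial S12, with an RPKM of 241 and 253 (0.07), and Mrps10, of the small subunit head, with 17.3 and 18.3 (0.08). The counting interval lay above 0 for 66 members, below 0 for Mrps14, Mrpl34 and Mrpl45, and spanned 0 for 5, namely Mrps2, Mrps21, Mrps30, Mrps10 and Mrpl1.

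Although the proteins are needed in nearly equal numbers, the RPKM of the members spanned 689-fold in WT and 779-fold in Kai1-/- PCs. The highest was Mrpl52, of the central protuberance, on chromosome 14 from 55045746 to 55048587, at 1538 RPKM in the WT and 1897 RPKM in the Kai1-/- library. It was followed in WT PCs by Mrpl54 (641 and 1034), Mrps21 (556 and 539) and Mrpl33 (445 and 898). These 4 genes made up 41.1% of the members' summed RPKM in WT and 39.3% in Kai1-/- PCs. By the mean of both libraries, the next high genes of the large subunit were Mrpl30 (371 and 498), Mrpl14, Mrpl12, Mrpl23 (214 and 301), Mrpl13 (144 and 283), Mrpl34 and Mrpl42 (134 and 259). By the same mean, the highest of the small subunit after Mrps21 were Mrps12, Mrps26 (153 and 242), Mrps24, Mrps18b, Mrps16, Mrps7 (86.4 and 132), Mrps15 (94.8 and 122), Mrps18a and Mrps34 (69.1 and 108). Lowest in both libraries were Mrpl1 and Mrpl50, the latter with 2.96 and 3.74.

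The order of the genes was nearly the same in both libraries. The Pearson correlation of log2 RPKM between WT and Kai1-/- PCs was 0.98 over the 74 genes, which share transcript lengths and base composition between the libraries. In 61 genes the rank changed by 5 places or fewer, and the largest change was 12 places. High and low members had similar ratios, with a Spearman correlation of 0.10 between mean RPKM and log2 ratio.

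Part of the span in level went with transcript length. Shorter transcripts had a higher RPKM, with a Spearman correlation of -0.57 between annotated length and mean RPKM over the 74 genes. The 25 shortest, of 412 to 937 bases, had a median RPKM of 91.3 in WT and 122 in Kai1-/- PCs, and the 25 longest, of 1498 to 6073 bases, 22.2 and 30.3. Steps of whole reads were best met when about 200 bases were taken off each length (190 for WT and 210 for Kai1-/-), and division by such a shortened length gives a higher value to a short transcript such as that of Mrpl52, of 412 bases. Its part in the levels was not tested. The ratio varied less with length, with a Spearman correlation of -0.08. The median log2 ratio was 0.49 for the 25 shortest, 0.58 for the 24 of 940 to 1424 bases and 0.44 for the 25 longest. Over all tested genes in the same length ranges it was 0.36, 0.25 and 0.04. The distance from genes of like length was therefore smallest for the short members and largest for the long ones.

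**Figure D4:**
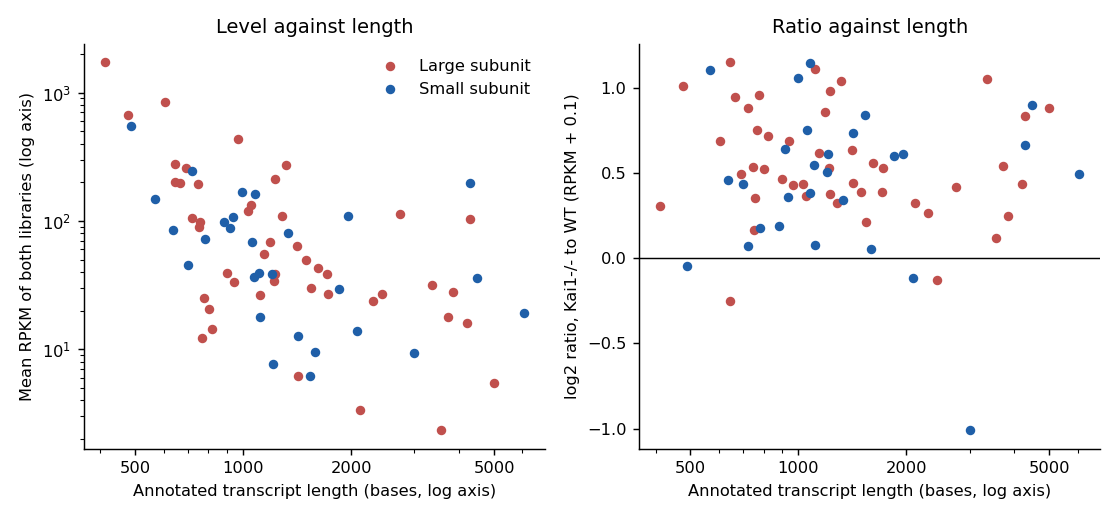
Mean RPKM of both libraries (left, log axis) and log2 ratio of Kai1-/- to WT (right) against the annotated transcript length in bases (log axis), with large subunit genes in red and small subunit genes in blue. The level falls with length from Mrpl52 at 412 bases, and the ratio shows little trend.

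The groups within the particle had similar ratios. The 47 genes with a bacterial homologue had a median log2 ratio of 0.49 and the 26 found only in mitochondria 0.57. With subunits taken by symbol, these medians were 0.38 for 17 small subunit genes, with Mrps18a, and 0.60 for 10, with Mrps30. In the large subunit they were 0.53 for 30 and 0.48 for 16. The 10 mitochondria-specific genes named for the small subunit were all higher in Kai1-/- PCs, whereas 14 of the 17 with a bacterial homologue were. The 8 proteins of the central protuberance, among them Mrpl46, Mrpl48 (74.5 and 133) and Mrpl40 (48.6 and 88.3), had a median of 0.66, and all 8 were higher. The 8 proteins around the exit tunnel, among them Mrpl47, Mrpl22 (74.7 and 137) and Mrpl45, had a median of 0.41. These groups of few genes overlapped in their ratios.

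The 3 paralogues that descend from bacterial S18 allow a comparison within one family. Mrps18a, of the large subunit in the structure, was at 91.3 RPKM in the WT and 104 RPKM in the Kai1-/- library, with a log2 ratio of 0.19. Mrps18b was at 141 and 184 RPKM (0.38) and Mrps18c 72.1 and 99.1 (0.46). Their order by level, with Mrps18b highest, was the same in both libraries. The counting intervals of Mrps18b and Mrps18c overlapped, and that of Mrps18a lay below both. These intervals do not cover shared reads. Mrps18b and Mrps18c had copies elsewhere in the genome, and Mrps18a overlapped Rsph9, by the criteria given below.

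Some proteins of the mitochondrial ribosome have other names. Of 7 such genes, all were higher in Kai1-/- PCs, with a median log2 ratio of 0.59. Chchd1, a small subunit protein, was the highest of them in ratio, with 27.3 and 69.3 RPKM (1.34), above the highest member. Gadd45gip1, of the large subunit, was at 103 and 170 RPKM (0.73), and Ict1, a peptidyl-tRNA hydrolase built into the large subunit, 108 and 166 (0.63). Aurkaip1 (121 and 125) and the pentatricopeptide repeat protein Ptcd3 (10.8 and 11.5) had ratios of 0.04 and 0.09, and the GTP-binding Dap3 had 0.29.

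The factors that act on the ribosome were closer to the median gene. Of 13 mitochondrial translation factors, 2 (15.4%) were more than 1.5-fold higher in Kai1-/- PCs, beside 20.7% of all tested genes. Of the 13 factors, 11 were higher, with a median log2 ratio of 0.20. The elongation factor Tufm, the highest of them, was at 74.1 RPKM in the WT and 87.4 RPKM in the Kai1-/- library (0.24). The initiation factor Mtif3 had 12.9 and 21.8 (0.74), the release factor Mtrf1 had 1.04 and 2.19 (1.01), and the recycling factor Mrrf had 14.1 and 12.4 (-0.18). Of 25 genes for ribosome assembly and rRNA modification, 21 were higher, 7 more than 1.5-fold (28%), with a median of 0.44. Highest among them were the rRNA methyltransferase Rnmtl1 (4.34 and 10.6, a ratio of 1.27) and the assembly GTPase Gtpbp10 (0.766 and 1.79, a ratio of 1.13). Malsu1, an assembly factor known to bind Mrpl14, was at 24.6 and 48.4 RPKM (0.97). Tfb1m, which methylates the small rRNA, had 2.48 and 1.69 (-0.53), and Mterfd1 2.66 and 1.78 (-0.55).

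Of the 18 tested mitochondrial aminoacyl-tRNA synthetases and amidotransferase subunits among 20 listed, 15 were higher in Kai1-/- PCs, with a median of 0.53. Lars2, the leucine enzyme, was the highest in level, with 463 and 674 RPKM (0.54). Of 17 genes for mitochondrial DNA transcription, replication and RNA processing, 16 were higher, with a median of 0.50. The mitochondrial RNA polymerase gene Polrmt was at 6.96 and 11.9 RPKM (0.77) and the DNA-packaging factor Tfam 1.82 and 4.12 (1.13), while Tfb2m, a factor of transcription initiation, had a ratio of -0.95. Of 9 transcription factors and coactivators known to act on such genes, 7 were tested and 6 of these were higher, with a median of 0.37. Nrf1 had 5.66 and 8.82 RPKM (0.63) and Gabpa 4.51 and 3.95 (-0.18), and the ratios of Yy1 and Myc were 0.37 and 0.49. The coactivator Pprc1 had 8.97 and 15.7 (0.80), and Ppargc1a and Ppargc1b were at or under 0.03 in both libraries.

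By their median, the mitochondrial ribosomal protein genes lay between the respiratory chain and the cytosolic ribosome. The 77 tested genes of oxidative phosphorylation had a median log2 ratio of 0.44, with 68 higher in Kai1-/- PCs and 28 (36.4%) more than 1.5-fold. The lowest of these were the tissue-restricted isoforms Cox6a2 (14.4 and 2.95) and Cox6b2 (48.9 and 12.3). The 76 cytosolic ribosomal protein genes had a median of 0.85, with all 76 higher and 61 (80.3%) more than 1.5-fold. Of all tested genes, 20.7% were more than 1.5-fold higher. Genes of mitochondrial import, chaperones and mass had a median of 0.64 over 15 genes, from Tomm20 (12.9 and 26.4, a ratio of 1.03) to the protease gene Lonp1 (45.0 and 31.0, a ratio of -0.53). The outer membrane channels Vdac1 (-0.06) and Vdac2 (-0.01) were near 0. The 17 cell cycle genes had a median of 1.42, with 16 higher, and summed to 290 and 696 RPKM in the WT and Kai1-/- libraries. The part of the cell cycle difference in the ratios of the mitochondrial ribosomal protein genes was not tested.

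**Figure D5:**
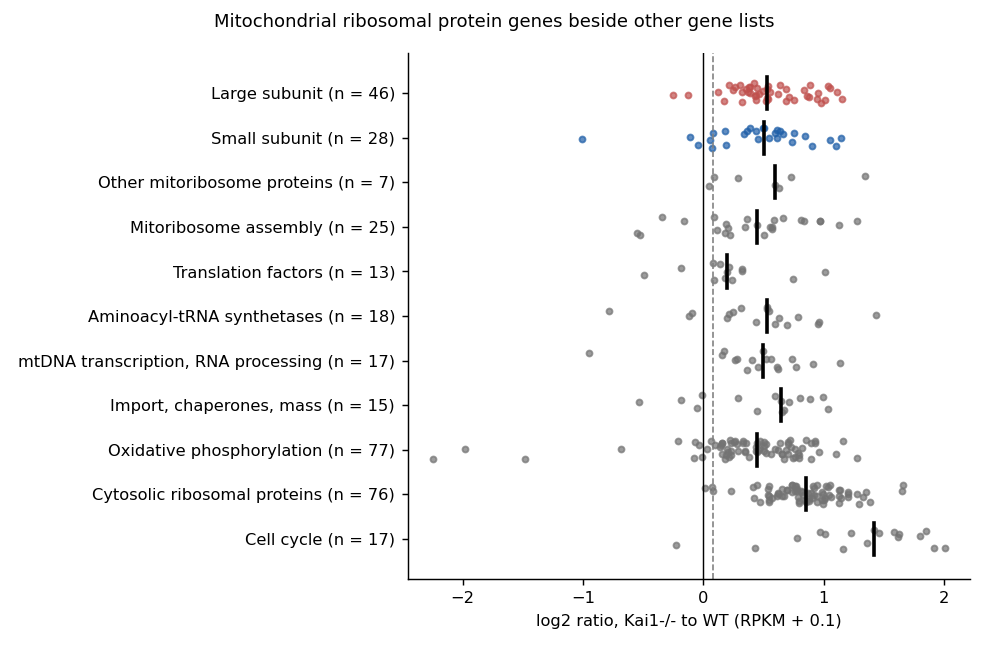
Log2 ratio of Kai1-/- to WT for the tested genes of each list, 1 point per gene, with a black bar at the median, a solid line at 0 and a dashed line at the median of all tested genes. The large (0.53) and small subunit (0.50) medians lie between translation factors (0.20) and cytosolic ribosomal proteins (0.85), and cell cycle genes are the highest at 1.42.

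Promoters were looked up for motifs because most members shared a direction as deposited. RefSeq promoters on GRCm38.p6, from 250 bases before to 50 after the start, were matched for 65 of the 74 genes, with the first entry of each gene used. Motifs were searched on both strands, and each was counted on its own, so that a base can belong to more than one. The letters AAGATGGC, the core known for YY1 and also part of a translation start element of short leaders, were in 18.5% of the 65 promoters, against 5.29% of the promoters of 7644 tested genes and 2.88% of all 27025 promoters. The ETS and GABP core CCGGAAG was in 33.8%, against 19.9% and 9.12%, and the NRF1 core GCGCATGC in 12.3%, against 6.03% and 2.80%. The GC box GGGCGG was in 49.2%, against 67.6% and 35.9%. The E-box CACGTG was in 7.69%, against 10.7% and 7.24%, and the CRE TGACGTCA in 3.08%, against 3.31% and 1.88%. Among 56 promoters of cytosolic ribosomal protein genes, CCGGAAG was in 39.3%, GCGCATGC in 3.57% and AAGATGGC in 7.14%. The GC box was in 58.9% of these 56, the E-box in 8.93% and the CRE in 8.93%. In a description with no test, the 12 genes with AAGATGGC had a median log2 ratio of 0.57, and the 53 without it 0.46. With CCGGAAG the 22 genes had 0.40, and the 43 without it 0.53, and with GCGCATGC the 8 genes had 0.47 and the 57 without it 0.50.

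The 12 stretches with the core AAGATGGC or its complement are shown since the share of this motif was the furthest, as a ratio, from that of all tested genes, each on the gene's strand of GRCm38.p6 with the core in capitals and up to 8 bases on either side.
Mrps12, chr7:28742005-28742028, minus strand: tggacgcaGCCATCTTggagtgga
Mrps18a, chr17:46111007-46111030, plus strand: tgcgttccAAGATGGCggccctca
Mrpl37, chr4:107066825-107066848, minus strand: cacgggcaAAGATGGCggcgtcca
Mrpl36, chr13:73330971-73330994, plus strand: gaccttacGCCATCTTtcttcctg
Mrpl49, chr19:6057724-6057747, minus strand: gaggcgccAAGATGGCagcagcgg
Mrpl35, chr6:71823746-71823769, minus strand: caggctgcAAGATGGCggcttcca
Mrps27, chr13:99344792-99344815, plus strand: tgcgctccAAGATGGCggctccca
Mrps7, chr11:115604150-115604173, plus strand: cagcggccAAGATGGCtgcccccg
Mrpl32, chr13:14613264-14613287, minus strand: cgcgctctGCCATCTTtacccgga
Mrps11, chr7:78783016-78783039, plus strand: cgggcgccGCCATCTTtctgtctt
Mrpl42, chr10:95501907-95501930, minus strand: attgaagcAAGATGGCgagcgcgc
Mrps24, chr11:5707652-5707673, minus strand: gccggcccAAGATGGCgtggtc

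The stretches are listed from the lowest to the highest log2 ratio, from 0.07 for Mrps12 to 1.05 for Mrps24. In 8 of the 12 genes the core stood on the gene's own strand after the annotated start, between base 12 in Mrps18a and base 37 in Mrps24, counted from 1 at the start. In the other 4 it stood on the opposite strand before the start, at -199 in Mrps12 and -242 in Mrpl32. The oppositely transcribed genes Sars2 and Psma2 start 171 and 217 bases from these members in the mm9 annotation. These cores can therefore lie within Sars2 and Psma2. Among tested genes with the core, 198 of 404 had it on their own strand after the start.

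The promoters of the genes with the highest and the lowest ratio are shown as the 150 bases before the start, with matches to the motifs above in capitals. That of Mrpl14 is chr17:45686199-45686348 on the plus strand of GRCm38.p6, and that of Mrps14 is chr1:160195065-160195214 on the plus strand.
Mrpl14: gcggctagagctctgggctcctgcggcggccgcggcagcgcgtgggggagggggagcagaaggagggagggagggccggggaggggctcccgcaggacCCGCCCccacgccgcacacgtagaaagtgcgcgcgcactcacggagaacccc
Mrps14: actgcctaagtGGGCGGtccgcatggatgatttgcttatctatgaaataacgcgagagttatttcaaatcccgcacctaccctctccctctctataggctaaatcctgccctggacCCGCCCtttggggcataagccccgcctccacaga

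Both held the GC box only, with 1 match in Mrpl14 and 2 in Mrps14. Neither window held the YY1, ETS, NRF1, CRE or E-box letters.

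Some members can share reads with other genes. A copy of at least 50% of the transcript with at least 90% identity was found elsewhere in the genome for 20 members. Overlap with another tested gene was found for 17, for 14 of them on the other strand alone. Overlap was taken over whole gene spans, introns included. Mrpl46 and Mrps11 overlapped each other by 413 bases, in head-to-head orientation on chromosome 7. Mrpl14 overlapped Tmem63b by 584 bases, and Tmem63b was at 16.2 RPKM in the WT and 10.1 RPKM in the Kai1-/- library (-0.67). Of the 8 members more than 2-fold higher in Kai1-/- PCs, 7 had a copy or an overlap and only Mrps35 had neither. Mrpl12 and Mrps16 had copies. Mrpl33 overlapped Bre (8.93 RPKM in the WT and 6.68 RPKM in the Kai1-/- library) and Rbks (2.13 and 0.136). Mrpl47 overlapped Actl6a (9.30 and 17.7) and Ndufb5 (59.7 and 90.1), and Mrps24 overlapped Urgcp (11.6 and 15.3). The part of shared reads in the ratios of the 8 genes was not tested. Mrps36 had 8 copies. Without the 34 members that had a copy or an overlap, 36 of 40 were higher in Kai1-/- PCs, and the median log2 ratio was 0.44 for 24 large and 0.50 for 16 small subunit genes.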

How the data were processed

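RNA of 1 WT and 1 Kai1-/- library of aortic PCs was sequenced. The authors aligned the reads to mm9 (NCBI37) with TopHat 2.0.9 and Bowtie and deposited 1 RPKM value per RefSeq gene and library. Cufflinks is also named in the submitters' processing notes. The 38 unnamed rows were dropped, and the rows of 153 symbols listed more than once, none of them a member, were averaged. Genes reaching a mean of 1 RPKM are called tested, for fold only, since no test was possible. The members and gene lists were chosen with earlier results of these data known. Named members were the 10 highest in each subunit, the 8 highest and 8 lowest in ratio, the Mrps18 paralogues and those whose place differs from their symbol, and a few others were named after their values were seen. Subunit places came from general knowledge.

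Low RPKM values of genes with 1 transcript of over 800 bases were fitted to whole reads, and 81.0% (WT) and 78.3% (Kai1-/-) lay within 0.15 of one. Reads per gene used the first-named transcript of GENCODE M1 and are approximate, and the intervals cover counting error only. Member transcripts were aligned to NCBI37 with minimap2 2.31. Mrpl53 and Mrps6 were not analysed here. Alternatives were other pseudocounts, scalings, filters, row choices and subunit assignments. The ratio step was tested on simulated data. Python 3.11.15, numpy 2.4.6, pandas 2.3.3, scipy 1.17.1 and matplotlib 3.10.9 were used.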

Additional observations from a re-analysis of the deposited data

How the results depend on the processing

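The medians were 0.53 for the large and 0.50 for the small subunit as deposited, with 31 genes past 1.5-fold, 30 higher and 1 lower. With a pseudocount of 1 RPKM the medians were 0.51 and 0.48. With the median gene set to 0 they were 0.44 and 0.42, with equal upper quartiles 0.40 and 0.37, and with equal RPKM sums without cytosolic ribosomal protein genes 0.33 and 0.30, with 18 genes past 1.5-fold, 17 of them higher and 1 lower, beside 13.4% and 22.9% of all tested genes. With equal RPKM sums they were 0.042 and 0.017, and scaled to Gapdh 0.027 and 0.0015, with 8 genes past 1.5-fold in each case, 4 higher and 4 lower, beside 6.84% higher and 37.9% lower of all tested genes with equal sums and 6.6% and 38.8% with Gapdh. These shifts follow from the scaling itself. Assigned by structure, the medians were 0.51 and 0.54. Without the members that can share reads, an alternative chosen after seeing the data, the large subunit median was 0.44. Of the 40 members left, 16 were past 1.5-fold, 15 higher and 1 lower, beside 20.6% and 16.3% of all genes tested in that setting. Of 60 recomputed values, 35 stayed within the counting interval or within 1.5 times the count, 25 moved and 0 changed sign. Most of the 60 were gene counts, which cannot change sign. The difference of large minus small subunit medians was not among them. It was 0.025 as deposited, -0.036 by structure and -0.065 without the members that can share reads. No paired analysis was possible because a genotype is represented by 1 library, and no library could be left out. The estimated reads limit the low members, with 154 reads in WT PCs for Mrpl32.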

Other observations

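Several members start close to another gene that is transcribed the other way. Within 1000 bases of the start of a member, and in head-to-head orientation, lay 21 tested genes that are no members. Of these 21, 15 were higher in Kai1-/- PCs, with a median log2 ratio of 0.51 beside 0.53 for the members they face, and 10 were more than 1.5-fold higher and 3 more than 1.5-fold lower, beside 20.7% and 16.2% of all tested genes. Among the 21, Ndufb5, Sars2 and Peo1 also belong to the lists of mitochondrial genes compared above. The pairs did not always go the same way. Tmem63b, facing Mrpl14 (1.15), had a log2 ratio of -0.67, Wdfy1, facing Mrpl44, -0.93, and Cyb5rl, facing Mrpl37 (0.39), -0.61. Ncapd2, a condensin subunit facing Mrpl51 (0.42), had 1.29, and Sars2, facing Mrps12 (0.07), had 0.69. Mrpl46 (1.11) and Mrps11 (0.75) face each other, with starts 412 bases apart. Whether reads were counted by strand is not given in the sources used here, so that reads from overlapping genes cannot be told apart.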
